A study of Mus musculus with 6 samples.

Results

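Solute carriers are membrane proteins that move sugars, amino acids, ions, metals, vitamins, nucleotides and organic acids across the plasma membrane or the membranes of organelles. Each numbered family of *Slc* genes shares sequence ancestry rather than one substrate. In the kidney they carry out the reabsorption and secretion of the nephron, and many of them are switched on as the proximal tubule matures. The genes described here are those whose symbol in the platform annotation begins with Slc and a number, and which had at least 1 probe with a detection p-value under 0.05 on 3 or more of 6 arrays. *Slc34a1*, *Slc6a18*, *Slc12a1*, *Slc40a1*, *Slc11a1*, *Slc11a2*, *Slc4a1* and the Slco genes were left out by name. One probe stood for each gene, the one with the highest mean. Of 349 eligible genes, 189 were measured in this way, out of 10474 genes tested on the arrays. They include 5 that carry an Slc symbol but are not transporters, such as the scaffold gene *Slc9a3r1*, which leaves 184 transporters of 44 families. Of the other 160 genes, 90 had no probe detected on any array.

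The kidneys were whole organs at E15.5 from 3 litters. Mutant kidneys were FoxD1GC;Dicer fl/fl, in which a GFP-Cre fusion expressed from the endogenous *Foxd1* locus acts on floxed *Dicer1* in the renal stroma and the cells descended from it. Control kidneys came from Cre-negative littermates, so what the Cre insertion itself does and what *Dicer1* loss does cannot be told apart. Each litter gave 1 control and 1 mutant array, and each array held RNA pooled from 2 embryos. Most solute carriers with a known site in the kidney belong to epithelia, in which this Cre is not expected to act, and in RNA of a whole organ fewer cells of a type and less RNA per cell cannot be told apart.

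Between 16981 and 20224 probes were detected on an array, and normalized signals of any pair of arrays correlated at 0.95 or more. The tissue label was checked on marker genes. All 6 listed genes of stroma and all 5 of nephron progenitors were measured, but only 4 of 5 of proximal tubule, 4 of 5 of collecting duct and 1 of 4 of podocytes. Summed on the linear scale, the stromal markers ranged from 9688 to 10324 on control arrays and from 7696 to 8615 on mutant arrays. In the same list *Col3a1* had a log2 fold change of -0.51, while *Pdgfra* was at 0.06 and *Col1a1* at 0.37, and over the 6 genes the median was -0.11 with 2 higher and 4 lower. *Xist*, which marks cells with an inactive X chromosome, gave mutant minus control differences of -5.10, 4.82 and 5.03 in litters 1, 2 and 3. The Y-linked gene *Kdm5d* ran the other way, by 1.20, -1.18 and -1.91. The pools of a litter were therefore not alike in sex-linked expression, and litter 1 was opposite to litters 2 and 3.

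No solute carrier gene differed between the genotypes at the threshold of the study's methods, a *B*-statistic (the log odds that a gene is differentially expressed) above 0, in a limma model with litter and genotype. None had an adjusted p under 0.05 either. The background is the same, since 0% of all genes tested passed *B* above 0 and 0% passed the adjusted p. The paper, from its own processing of the arrays, does report differentially expressed genes at E15.5. The 0% therefore holds for the fit used here, and the reason for the difference was not tested. At an unadjusted p under 0.05, 6 solute carrier genes were higher in the mutant and 9 were lower. These are 3.17% and 4.76% of the 189, against a background of 2.13% and 3.23% of all genes tested. Both directions together made 15 genes (7.94%), against 5.36%. Among the 15, *Slc17a8* and *Slc13a4* passed the filter on detection through a single genotype and had to differ. The same filter was applied to all genes. The members are dimmer than the genes around them, with a median signal of 6.67 on the log2 scale against 7.57 over all genes. The median standard error (SE) of a log2 fold change was 0.23, and the median half-width of its 95% confidence interval was 0.54. Differences smaller than this were not resolved for a gene taken singly. *B* above 0 asks for more, since *Slc17a8* at -1.44 and *Slc35f1* at 1.60 did not pass it.

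More solute carrier genes were lower than higher in mutant kidneys, 126 against 63. This is 66.7% of them, whereas 56.3% of all genes tested were lower. The median over the members was -0.12, and over all genes tested it was -0.04. Among the 145 members detected on all 6 arrays, 101 were lower and 44 higher, with a median of -0.14 against -0.04 for all genes so detected. The shift was not the same in every litter. The members' median difference was 0.00 in litter 1, -0.15 in litter 2 and -0.21 in litter 3, and the values over all genes were -0.01, -0.02 and -0.11. In litter 1 the members lower and higher in the mutant were nearly even, 94 against 95, and in litter 3 there were 124 against 64. The plot of cumulative shares by litter shows both distributions on top of each other in litter 1 and set apart in litters 2 and 3.

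**Figure D1:**
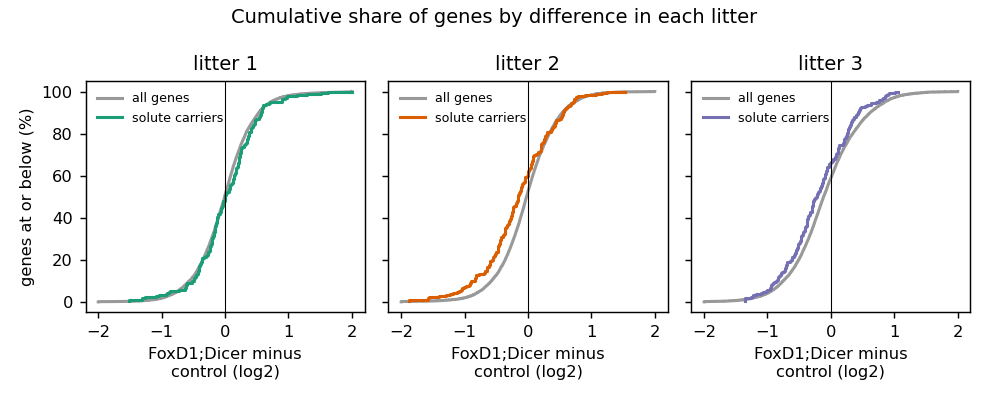
Cumulative share of genes (percent) at or below a given difference between the mutant and the control array, on the log2 scale, in each of 3 litters. Grey lines are all 10474 genes and coloured lines the 189 solute carrier genes, with differences beyond the axis drawn at its ends. The coloured line lies close to the grey line in litter 1 and to the left of it over most of the range in litters 2 and 3, where 60.3% and 65.6% of solute carrier genes were lower in the mutant.

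A sign pattern across litters was common. Of the members, 58 (30.7%) were higher in the mutant in litter 1 and lower in litters 2 and 3, which was so for 25.9% of all genes. The opposite pattern was seen in 24 (12.7%), against 20.1% of all genes. Of the members, 20 (10.6%) were higher in all 3 litters and 36 (19%) were lower in all 3. The background was 9.86% and 15.4% of all genes tested. Both together made 56 (29.6%), against 25.3%. The mutant arrays lay all above the control arrays for 14 members (7.41%) and all below them for 18 (9.52%), against 5.1% and 8.23% of all genes tested.

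Sequences upstream of 3 of the genes are given here. The sequences belong to the member with the largest negative value, the one with the largest positive value, and an organic anion transporter of the proximal tubule. Each covers 250 bases before and 50 bases after a transcript start in RefSeq (build GRCm38.p6). Capitals mark CpG dinucleotides. The motifs searched, on both strands, were CAAAGTCCA for Hnf4a, TGATGCAAT for Atf4 and the TATA box TATAAA.

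*Slc17a8*, chr10:89621200-89621499, minus strand, the first of 2 listed starts: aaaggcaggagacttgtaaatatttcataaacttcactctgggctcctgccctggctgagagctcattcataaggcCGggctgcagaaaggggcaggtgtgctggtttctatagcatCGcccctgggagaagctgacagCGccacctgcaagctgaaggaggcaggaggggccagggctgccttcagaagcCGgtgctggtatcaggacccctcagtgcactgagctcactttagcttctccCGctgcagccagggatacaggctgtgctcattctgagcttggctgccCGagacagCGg

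*Slc35f1*, chr10:52690251-52690550, plus strand: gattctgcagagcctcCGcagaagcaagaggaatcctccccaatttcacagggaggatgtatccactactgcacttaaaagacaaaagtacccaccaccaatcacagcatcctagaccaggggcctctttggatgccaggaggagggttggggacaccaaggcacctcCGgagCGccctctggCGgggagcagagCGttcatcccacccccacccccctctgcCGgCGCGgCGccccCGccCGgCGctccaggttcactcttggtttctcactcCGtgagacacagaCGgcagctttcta

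*Slc22a6*, chr19:8617746-8618045, plus strand: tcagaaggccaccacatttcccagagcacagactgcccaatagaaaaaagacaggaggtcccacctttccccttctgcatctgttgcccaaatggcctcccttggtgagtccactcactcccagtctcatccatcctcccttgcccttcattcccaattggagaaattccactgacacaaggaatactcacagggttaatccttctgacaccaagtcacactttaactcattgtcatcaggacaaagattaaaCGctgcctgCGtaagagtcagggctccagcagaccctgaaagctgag

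None of these motifs was found in the 3 windows printed. Of 154 members with a window in the table, 14 (9.09%) held TATAAA, against 14.2% of all 27025 windows, and 0 of 13 proximal tubule transporters held it. CAAAGTCCA and TGATGCAAT were in 0 members and in 0.477% and 0.207% of all. The windows of solute carrier genes were richer in CpG, with a median of 17 per window against 7 over all. The members had passed the filter on detection, whereas the windows over all were not filtered. No values were taken over the genes tested, so these differences are not shown to be particular to solute carriers. The 3 windows printed held 7, 14 and 2 CpG for *Slc17a8*, *Slc35f1* and *Slc22a6*. A match is a description of the letters and not a binding site.

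The transporters of amino acids and neurotransmitters made up the group with the most members, 31 genes. Of these, 9 were higher in mutant kidneys and 22 lower, and the median was -0.11. At an unadjusted p under 0.05, 2 were higher and 3 lower, where the shares over all genes were 2.13% and 3.23%. *Slc17a8*, which encodes the vesicular glutamate transporter VGLUT3, had signals of 6.52, 6.39 and 6.13 on the control arrays of litters 1, 2 and 3 and of 5.02, 4.81 and 4.89 on the mutant arrays. Every mutant array was below every control array, and the probe was above background on all 3 control arrays but on no mutant array. Its log2 fold change was -1.44 (SE 0.20, adjusted p = 0.48 from limma), the lowest value among the members. It passed *B* above 0 in other settings, among them the fit without litter. Because the mutant signals were not above background, the difference is also given with a floor under them, 2.47-fold lower in the mutant. This value sets the control mean against the mutant mean of, on each array, the higher of the lowest detected signal and the gene's own. It allows for background but not for the spread between arrays. The confidence interval of the log2 fold change was -1.91 to -0.96. A gene detected only on the arrays of one genotype entered the test because of that genotype and had to differ.

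*Slc1a6*, the glutamate transporter EAAT4, was at 5.47, 6.54 and 5.75 in controls and at 5.47, 5.45 and 4.80 in mutants, so that litter 1 showed no difference. The log2 fold change was -0.68 (SE 0.27, unadjusted p = 0.038 from limma). *Slc32a1*, which loads GABA and glycine into synaptic vesicles, had one of -0.45 (SE 0.19), with differences of -0.43, -0.34 and -0.57 by litter. *Slc18a2*, the vesicular monoamine transporter VMAT2, was on the other side, at 0.19 (-0.28, 0.58 and 0.26 by litter). Of 4 neuron markers, *Stmn2* alone was measured. It was at 5.28, 5.64 and 5.51 in controls and 5.01, 4.83 and 4.98 in mutants, a log2 fold change of -0.53 (SE 0.21, adjusted p = 0.86). Summed over the list this is 38.7 to 49.7 on control arrays and 28.5 to 32.3 on mutant arrays on the linear scale, and its part in the values of these transporters was not tested.

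*Slc7a7* and *Slc7a8* encode light chains that pair with *Slc3a2* in the basolateral membrane of proximal tubule cells, where the first exports cationic and the second neutral amino acids. Their values went in opposite directions. *Slc7a7* was at 6.0, 5.57 and 5.72 in controls and 6.25, 6.20 and 6.57 in mutants. *Slc7a8* was at 6.20, 5.94 and 6.17 in controls and 5.84, 5.59 and 5.24 in mutants. In neither did the groups overlap. The log2 fold changes were 0.58 (SE 0.21) for *Slc7a7* and -0.55 (SE 0.22) for *Slc7a8*, and a further probe of each gave 0.33 and -0.16. The heavy chain *Slc3a2* itself had a log2 fold change of 0.14 (SE 0.19, 95% confidence interval -0.31 to 0.60). *Slc38a9*, a lysosomal transporter that senses arginine for the kinase mTORC1, was at 5.17, 4.92 and 5.24 in controls and at 5.65, 5.68 and 5.70 in mutants, without overlap. In the limma fit this gave a log2 fold change of 0.57 (SE 0.20). The control signals were near background, and the probe was above it on 2 control arrays and on all 3 mutant arrays. Its gene is on chromosome 13 with *Foxd1*, where strain differences carried along with the Cre allele and the loss of *Dicer1* cannot be told apart.

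The other families of this group held mostly values below 0. All 4 measured members of SLC1, the glutamate and neutral amino acid transporters, had negative values. So did all 5 of SLC6, which carry taurine, creatine, glycine and GABA, and 6 of 7 of SLC7, against 56.3% of all genes tested. In litter 1, however, the family medians were 0.06, 0.33 and 0.25. Of SLC1 2 genes, of SLC6 4 and of SLC7 3 were higher in litter 1 and lower in litters 2 and 3. A further probe of *Slc6a15* gave 0.23. In SLC38, the neutral amino acid transporters, 4 were higher and 3 lower. *Slc38a2*, a transporter of small neutral amino acids whose RNA rises on amino acid shortage, had one of the bright probes. It was at 11.56, 11.40 and 11.39 in controls and 11.73, 11.35 and 11.30 in mutants, a log2 fold change of 0.01 (SE 0.20, 95% confidence interval -0.46 to 0.47). Of 17 genes of the amino acid response, 15 were measured, 6 of them higher and 9 lower (median -0.02). An unadjusted p under 0.05 in limma was reached by 0 of these, against 5.36% of all genes. *Atf4*, the transcription factor of that response, had a log2 fold change of -0.08 (SE 0.22).

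**Figure D2:**
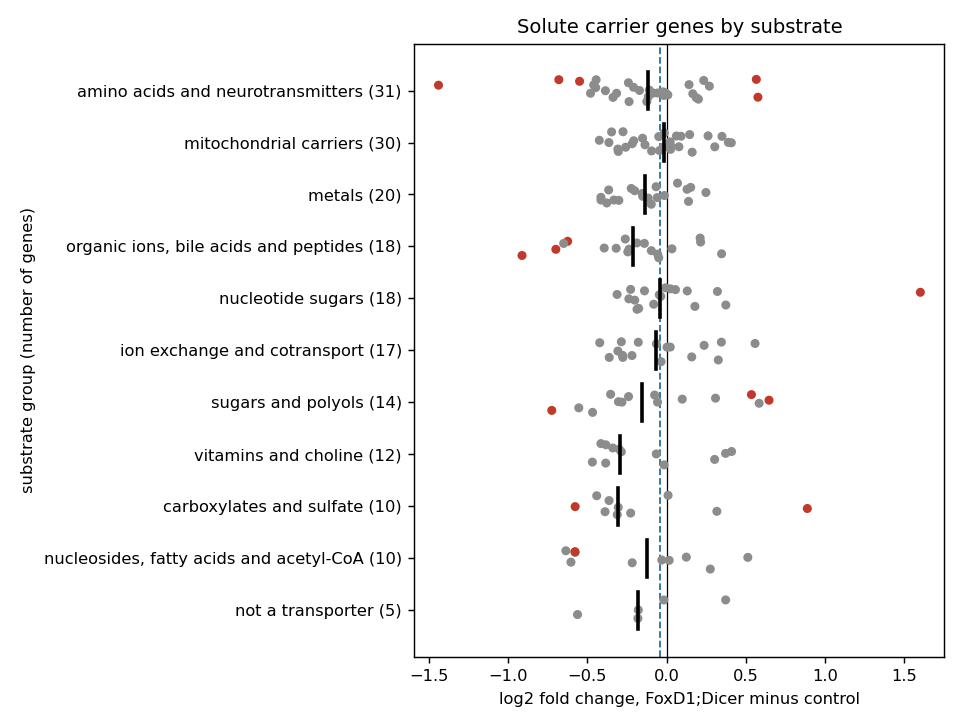
Log2 fold change of each solute carrier gene (mutant minus control), by substrate group for groups of 5 or more genes, with the number of genes in brackets. Points are genes, red where the unadjusted limma p is under 0.05, black bars are group medians and the dashed line is the median over all genes tested (-0.04). Most group medians lie to the left of the dashed line, from -0.31 for carboxylates and sulfate to -0.02 for mitochondrial carriers.

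The SLC25 family, most of whose members are carriers of the mitochondrial inner membrane, gave the group closest to no difference. The 30 measured members split into 14 higher and 16 lower (median -0.02). An unadjusted p under 0.05 in limma was seen in 0 of them, against 5.36% of all genes. *Slc25a5*, the adenine nucleotide translocator that exchanges ADP for ATP, differed by -0.13, -0.05 and 0.12 in litters 1, 2 and 3. The groups overlapped, and the log2 fold change was -0.02 (SE 0.20, 95% confidence interval -0.48 to 0.44). *Slc25a3*, the mitochondrial phosphate carrier, had one of 0.16 (SE 0.22). *Slc25a39*, which brings glutathione into mitochondria, was at 8.15, 7.92 and 8.14 in controls and at 8.39, 8.29 and 8.57 in mutants. These groups did not overlap, and its log2 fold change was 0.35 (SE 0.19, adjusted p = 0.86). *Slc25a30*, another mitochondrial carrier gene, had one of 0.41 (SE 0.20). A list of other mitochondrial genes had a median of 0.03 over 10 measured of 18.

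The organic ion, bile acid and peptide transporters include the secretory transporters of the proximal tubule. Of 18 members, 4 were higher and 14 lower (median -0.21), of which 3 lower and 0 higher were at an unadjusted p under 0.05 in limma (3.23% and 2.13% of all genes). *Slc22a22*, which in the mouse encodes a prostaglandin transporter of the kidney, was at 6.84, 5.99 and 6.20 in controls and 6.12, 4.98 and 5.19 in mutants. The groups overlapped because litter 1 was higher than the others in both genotypes, but the differences by litter were -0.72, -1.01 and -1.01. From limma, the log2 fold change was -0.91 (SE 0.20, adjusted p = 0.86). *Slc15a2*, the proton-coupled peptide transporter PEPT2, was at 7.58, 7.47 and 7.71 in controls and at 7.34, 6.65 and 6.68 in mutants. No mutant array reached a control array, and the log2 fold change was -0.70 (SE 0.23), with -0.50 at a further probe. *Slc22a6*, the organic anion transporter OAT1, was at 7.33, 6.68 and 6.35 in controls and 7.21, 5.46 and 5.83 in mutants. Its difference was only -0.13 in litter 1, against -1.22 and -0.52 in litters 2 and 3, and its log2 fold change was -0.62 (SE 0.26). 

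Transporters that mark a nephron segment were taken as a list of their own. The list also held the broadly expressed *Slc2a1* and *Slc12a2*, and *Slc14a1* of the vasa recta. Of the 32 listed genes, 30 had a probe and 19 were measured. The other 11 included *Slc5a2*, the glucose transporter SGLT2 of the early proximal tubule, with 0 arrays detected, and *Slc22a8*, the organic anion transporter OAT3, with 1. Of 14 measured proximal tubule transporters, 11 were lower in mutant kidneys and 3 higher, with a median of -0.25. Their median difference was 0.20 in litter 1, -0.51 in litter 2 and -0.39 in litter 3, and 6 of them were higher in litter 1 and lower in the other litters. *Slc27a2*, a very long chain fatty acid transporter, was at 8.81, 8.35 and 8.21 in controls and at 9.04, 7.06 and 7.37 in mutants. Its mutant array of litter 1 was the brightest of all 6, and its log2 fold change was -0.63 (SE 0.31, 95% confidence interval -1.37 to 0.10). *Slc47a1*, the extrusion transporter MATE1, was at 9.70, 9.73 and 9.62 in controls and at 10.11, 8.96 and 8.80 in mutants. Its log2 fold change was -0.39 (SE 0.29), while 2 further probes gave -0.01 and 0.28, so its probes did not share a direction. *Slc7a9*, the light chain of apical cystine transport, had differences of 0.55, -0.53 and -0.39. Its log2 fold change was -0.12, while a further probe gave 0.22, so its probes did not share a direction either.

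Markers of the proximal tubule that are not solute carriers were taken beside these. *Lrp2*, which encodes megalin, differed by 0.02, -0.79 and -1.02 in litters 1, 2 and 3, and *Hnf4a*, a transcription factor of the tubule, by 0.17, -0.38 and -0.70. *Cubn*, which encodes the partner receptor cubilin, differed by -0.39, -0.80 and -0.81, and *Fbp1*, an enzyme of gluconeogenesis, by -0.48, -0.14 and -0.62, so both were lower in litter 1 as well. All 4 measured of the 5 markers were lower on average, with a median of -0.50. By litter the median was -0.18, -0.58 and -0.76, of which the first differs in sign from that of the transporters. Their summed level ranged from 877 to 1156 on control arrays and from 550 to 1166 on mutant arrays. Among the arrays, the 95th percentile of signal over the median undetected signal was 7.90 and 7.91 on the mutant arrays of litters 2 and 3 and 9.45 to 10.5 on the other 4. The part of these markers, of sex-linked expression and of array quality in the values of the transporters was not tested. *Slc2a2*, the basolateral glucose transporter GLUT2, and *Slc5a1*, the apical transporter SGLT1, had log2 fold changes of 0.10 (SE 0.20) and -0.07 (SE 0.21). A further probe of *Slc2a2* gave 0.47. Outside the proximal tubule, *Slc12a3*, the thiazide-sensitive sodium chloride cotransporter, had differences of 0.30, -0.44 and -0.95. Its log2 fold change was -0.36, with -0.50 at a further probe. *Slc12a2*, the widely expressed sodium potassium chloride cotransporter, had a log2 fold change of -0.06 (SE 0.19) and *Slc8a1*, a sodium calcium exchanger, one of 0.02 (SE 0.22).

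**Figure D3:**
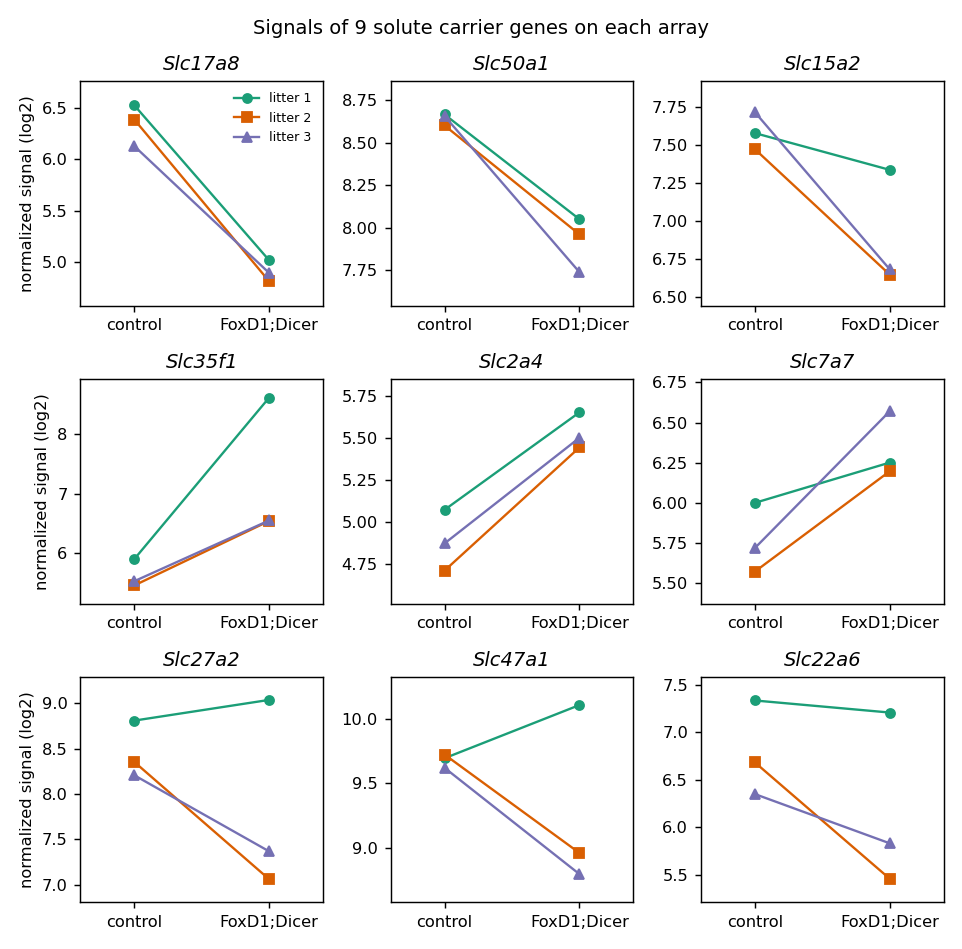
Normalized signal (log2) of 9 solute carrier genes on each of 6 arrays, with a line from the control to the mutant array of a litter. In the upper row all 3 lines fall and in the middle row all 3 go up. In the lower row *Slc27a2* and *Slc47a1* were higher in the mutant of litter 1 and lower in litters 2 and 3, and the line of *Slc22a6* is nearly flat in litter 1 with a difference of -0.13.

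Among transporters of sugars and polyols, 5 of 14 were higher and 9 lower (median -0.16). *Slc50a1*, the sugar transporter SWEET1 of the Golgi apparatus, was at 8.66, 8.60 and 8.66 in controls and at 8.05, 7.96 and 7.74 in mutants. The log2 fold change was -0.72 (SE 0.20, adjusted p = 0.86). Of the 145 members detected on all arrays, 6 were lower at an unadjusted p under 0.05 in limma, *Slc50a1* among them. Of all 8854 genes so detected, 240 were. *Slc2a4*, the insulin-responsive glucose transporter GLUT4, was at 5.07, 4.71 and 4.87 in controls and at 5.65, 5.44 and 5.50 in mutants, without overlap. In the limma fit this gave a log2 fold change of 0.65 (SE 0.19), on signals above background on 1 control array and on all 3 mutant arrays. *Slc37a3*, a member of the sugar phosphate family, was at 6.02, 6.06 and 5.88 in controls and 6.40, 6.48 and 6.68 in mutants, a log2 fold change of 0.54 (SE 0.20), with 0.49 at a further probe. *Slc2a1*, the glucose transporter GLUT1 of most cells, differed by 0.57, -0.68 and -0.80 in the 3 litters, and the neuronal type GLUT3, *Slc2a3*, by 0.65, -0.64 and -1.07. Of 15 genes of glycolysis and the hypoxia response, 11 were measured, with a median of 0.11. At an unadjusted p under 0.05 in limma there were 0, against 5.36% of all genes.

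The nucleotide sugar transporters of the endoplasmic reticulum and Golgi apparatus (SLC35) held the largest positive value. *Slc35f1*, a member of the family without an established substrate, was at 5.90, 5.46 and 5.53 in controls and at 8.61, 6.54 and 6.55 in mutants. All mutant arrays were above all control arrays. Litter 1 stood well above the other litters among the mutant arrays. From limma, the log2 fold change was 1.60 (SE 0.35, adjusted p = 0.86), made of 2.71, 1.08 and 1.02 by litter, and it was 1.05 without litter 1. Without litter 2 it was 1.86 and passed *B* above 0, as it did with arrays scaled to one median and with array weights. Among the other members of the group, *Slc35f2* had a log2 fold change of 0.37 (SE 0.20), and *Slc35b1* and *Slc35b2*, of which the second carries the sulfate donor PAPS into the Golgi apparatus, had -0.23 (SE 0.20) and -0.20 (SE 0.22). Of 18 members 7 were higher and 11 lower, and the median, -0.04, was that of all genes.

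**Figure D4:**
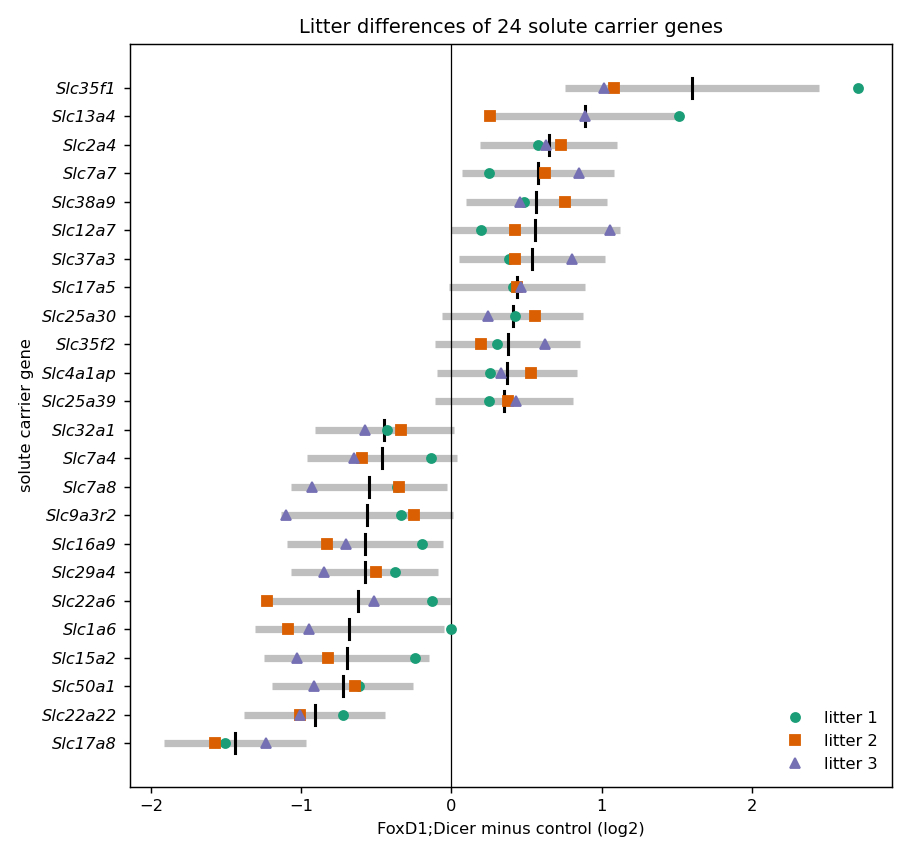
Differences between the mutant and the control array (log2) in each of 3 litters for the 12 members with the lowest p among those higher in all litters and the 12 among those lower in all litters. Symbols are litters, black bars the log2 fold change and grey bars its 95% confidence interval from limma. The 3 litters lie closest together for *Slc17a5*, at 0.41, 0.44 and 0.46, and furthest apart for *Slc35f1*, and litter 1 of *Slc1a6* lies at 0.

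Transporters of ions and metals showed small differences. Of 17 ion exchangers and cotransporters, 7 were higher and 10 lower (median -0.06), and 0 had an unadjusted p under 0.05 in limma. All 4 bicarbonate transporters of SLC4 had negative values, among them *Slc4a4*, the basolateral sodium bicarbonate cotransporter, at -0.22 (SE 0.22). Of these 4, 2 were higher in litter 1 and lower in litters 2 and 3. *Slc12a7*, a potassium chloride cotransporter gene that also lies on chromosome 13, was at 5.02, 5.11 and 4.83 in controls and at 5.21, 5.54 and 5.89 in mutants. It was above background on 1 control array and on all 3 mutant arrays, and the log2 fold change of 0.56 (SE 0.24) rests on control signals near background. Of 20 metal transporters, 5 were higher and 15 lower (median -0.13), and 0 had an unadjusted p under 0.05. Of the zinc importers (SLC39) 8 of 10 had negative values, whereas in the zinc exporters (SLC30) 4 of 7 did, and 56.3% of all genes tested. *Slc39a6* was level between the genotypes, at 10.01, 10.02 and 10.02 in controls and 10.11, 10.02 and 9.88 in mutants.

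Among groups of 5 or more genes the lowest medians were those of carboxylates and sulfate, at -0.31, and of vitamins and choline, at -0.29. Neither median was lower in litter 1. By litter they were 0.02, -0.60 and -0.22 for the first group and 0.05, -0.17 and -0.34 for the second. In the first, 7 of 10 were lower. *Slc16a9*, a monocarboxylate transporter family gene, was at 6.30, 6.35 and 6.12 in controls and at 6.10, 5.52 and 5.41 in mutants, without overlap, and its log2 fold change was -0.58 (SE 0.22). *Slc13a4*, a sulfate transporter, went the other way, with 4.71, 4.82 and 4.78 in controls and 6.22, 5.08 and 5.67 in mutants. It was above background on no control array and on all mutant arrays. It therefore entered the test through the mutant arrays alone and had to be higher there, so its difference is no sign of a change. With each control signal raised to the lowest detected signal of its array, the mutant mean was 1.5-fold higher. This value too leaves out the spread between arrays. From limma, the log2 fold change was 0.89 (SE 0.27, confidence interval 0.24 to 1.54, adjusted p = 0.86), and the difference in litter 2 was 0.26. Among the vitamin and choline transporters 9 of 12 were lower, *Slc23a2*, which takes up ascorbate, being lowest at -0.47 (SE 0.26). An unadjusted p under 0.05 in limma was reached by 0 of the 12, against 5.36% of all genes.

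Of 10 transporters of nucleosides, fatty acids and acetyl-CoA, 4 were higher and 6 lower. *Slc29a4*, a monoamine transporter of the nucleoside transporter family, was at 5.76, 6.34 and 6.23 in controls and 5.38, 5.84 and 5.38 in mutants. Its log2 fold change was -0.58 (SE 0.21, adjusted p = 0.86), with a lower value in each litter although the groups overlapped. *Slc29a3*, a lysosomal nucleoside transporter, was one of the 2 members whose litters differed most, at 0.95, -1.40 and -1.36. *Slc13a3*, a sodium dicarboxylate cotransporter, was the other, at 0.90, -1.56 and -0.28. *Slc17a5*, which exports sialic acid from lysosomes, was at 5.57, 5.13 and 5.12 in controls and 5.98, 5.57 and 5.58 in mutants, a log2 fold change of 0.44 (SE 0.19) on dim signals. *Slc9a3r2*, a scaffold protein of apical transporters that is itself no carrier, was at 9.66, 9.13 and 9.13 in controls and at 9.33, 8.88 and 8.03 in mutants (log2 fold change -0.56, SE 0.24). Its relative *Slc9a3r1* had a log2 fold change of -0.02 (SE 0.20). Of 15 other partners of transporters, such as subunits of the sodium pump, 11 were measured, 3 higher and 8 lower, with a median of -0.27. The pump subunits were split, with *Atp1b1* and *Atp1b3* at 0.15 and 0.21 and *Atp1b2* and *Fxyd2* at -0.35 and -0.25. *Pdzk1*, which anchors transporters in the brush border, differed by -0.10, -0.64 and -0.39 in the 3 litters, and *Aqp1*, a water channel of the proximal tubule, by 0.20, -0.88 and -0.81.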

How the data were processed

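RNA of 6 pools of whole E15.5 kidneys was hybridised to Illumina arrays. The authors deposited, per the labels, raw bead signal intensity values for every probe, each with a detection p-value. The authors further deposited a processed table on a log2 scale, for which the study's methods name the lumi and limma packages and no transformation. Of 45281 entries, 4 were dropped, 2 for lack of an identifier and 2 as repeats. Gene names came from the platform annotation. The intensity values went through neqc of limma, which models background from the detection p-values, adds an offset of 16, applies quantile normalization and takes log2. A probe entered if its detection p-value was under 0.05 on 3 or more arrays, which left 18639. The linear model (lmFit, then eBayes with a prior share of 0.01) had terms for litter and genotype, and Benjamini-Hochberg adjustment covered all of these probes. Signals of different probes were not compared as transcript levels, and the number of arrays limits the precision. At the detection limit, 18 members reached exactly 3 arrays, with means of 4.89 to 5.63, and 20 eligible genes reached 2, with means of 4.80 to 5.22. Named were the 10 members with the highest mean, the 12 of lowest p among those higher and the 12 among those lower in every litter, the nephron segment transporters and 2 with the widest range over litters. Other genes were named after their values were seen. Members, gene lists and substrate groups were chosen with earlier results of these data known, and the group of 2 SLC66 genes was set last. Litters are numbered in the labels, which pairs the arrays. The deviations of both arrays of a litter from their genotype means correlated at -0.29, -0.02 and -0.12. Alternatives covered the block, the values, background, scaling, detection, variance model, probes and each litter. The fit was tested on simulated data. Versions were limma 3.58.1 under R 4.3.3, with matplotlib 3.10.9 under Python 3.11.15 for the plots.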

Additional observations from a re-analysis of the deposited data

Results flagged for a closer look

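5 solute carrier genes outside the comparison, since their probes were detected on fewer than 3 arrays, were above background on 2 mutant arrays and on no control array. The mutant mean exceeded the control mean by 0.74 for *Slc1a2*, a glutamate transporter, by 0.67 for *Slc6a2*, the noradrenaline transporter, by 0.46 for *Slc22a16*, by 0.43 for *Slc5a5*, the iodide transporter, and by 0.22 for *Slc1a5*, a neutral amino acid transporter. The signal of *Slc1a2* was 6.61 and 5.41 on the mutant arrays of litters 1 and 3 and 4.58 on that of litter 2, against 4.48 to 5.07 on the control arrays. That of *Slc6a2* was 5.86 and 5.30 on the mutant arrays of litters 2 and 3. The reverse, 2 control arrays and no mutant array, was found for 2 genes, *Slc14a2* and *Slc35f6*. Genes picked for detection on mutant arrays only, or on control arrays only, lean that way by the choice. The differences are therefore no sign of a change. The share of all genes with such a pattern was not taken, and the differences were not tested.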

How the results depend on the processing

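The sign of the members' median held under every other setting tried. It was -0.32 with arrays scaled to one median, where the median over all genes was also lower, at -0.27, so that the members stood 0.05 below it. There 39 members were higher and the share lower was 79.4% of members against 81.2% of all genes, the reverse of the order in the report (66.7% against 56.3%). It was -0.036 with the series-matrix values and -0.055 without background correction, which is 0.019 and 0.032 below all genes. Leaving out a litter moved it between -0.20 and -0.05. Counts at an unadjusted p under 0.05, 6 higher and 9 lower, depended on the setting. They were 5 lower with litter as a random replicate block, 2 and 5 with the series-matrix values, 3 and 5 without background correction, 2 and 30 with arrays scaled to one median, 16 and 16 without a filter on detection (131 of 349 genes higher and 218 lower), 30 and 59 with array weights, 3 higher with an intensity trend, and 1 higher where a detection p under 0.01 on all 6 arrays was asked (32 of 118 genes higher). In both directions together, the share of members was 7.94% against 5.36% of all genes. It was below that of all genes with the series-matrix values (3.7% against 6.16%), without background correction (4.23% against 5.93%), with an intensity trend (5.29% against 5.75%) and without litter 3 (2.12% against 2.9%). With arrays scaled to one median it was 16.9% against 11.8%, and with array weights 47.1% against 30.9%. Without 1 litter the counts ran from 2 to 13 higher and from 2 to 37 lower, with the most of both without litter 1, where 21.3% of all genes passed, and the fewest without litter 3. *B* above 0 was passed by 1 member, *Slc17a8*, without litter in the model (no replicate block), with litter as a random replicate block, with an intensity trend and with the mean over the probes of a gene. It was passed by 2 members, *Slc17a8* and *Slc35f1*, with arrays scaled to one median, both of them also with an adjusted p under 0.05. It was passed by 4 with array weights, of which 1 had an adjusted p under 0.05. Without a litter, 0 to 1 members passed *B* above 0 and 0 to 1 had an adjusted p under 0.05, the 1 being *Slc35f1* without litter 2. Of the named genes, *Slc17a8* ranged from -1.54 to -0.27 and *Slc35f1* from 0.53 to 1.89, both closest to 0 with the series-matrix values. Signs turned for these genes. With arrays scaled to one median *Slc25a3* was at -0.14, *Slc38a2* at -0.31, *Slc2a2* at -0.077 and *Slc8a1* at -0.25. With array weights *Slc38a2* was at -0.041, *Slc12a2* at 0.013, *Slc25a17* at 0.032, *Slc9a3r1* at 0.014, *Slc2a2* at -0.061, *Slc5a1* at 0.00016 and *Slc9a3* at 0.13. With the mean over probes *Slc7a9* was at 0.049 and *Slc8a1* at -0.056. With the series-matrix values *Slc38a2* was at -0.0020. Leaving out a litter turned *Slc25a5* (-0.091 to 0.036), *Slc38a2* (-0.069 to 0.057), *Slc9a3r1* (-0.083 to 0.062), *Slc13a3* (-0.92 to 0.31), *Slc39a5* (-0.59 to 0.11), *Slc7a9* (-0.46 to 0.082), *Slc8a1* (-0.10 to 0.24), *Slc6a6* (-0.48 to 0.00023), *Slc25a17* (-0.55 to 0.060), *Slc39a6* (-0.071 to 0.052), *Slc26a4* (-0.47 to 0.020) and *Slc5a1* (-0.15 to 0.080). The causes were not tested.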
